A study of Mus musculus with 11 samples.

Results

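The genes for the protein components of the mitochondrial ribosome were compared between irradiated and untreated KP1 cells. The 78 genes were chosen by name alone, as the protein-coding genes of GENCODE M21 whose symbol begins with Mrpl or Mrps followed by a digit, pseudogenes left out, among 35056 genes with a transcript in the deposited quantifications. KP1 is a line of mouse small cell lung cancer (SCLC) that carries mutations in Rb and p53 and grows in suspension. All libraries came from this 1 line. Bulk RNA sequencing covered untreated control replicates 2 and 3 and irradiated replicates 1, 2 and 3, the latter collected 24 h after a single dose of 5 Gy. Nothing in the labels says that the replicates were separate cultures, so p-values measure the spread between these libraries, which may be technical. The 6 single-cell samples of the series were not analysed here.

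Mitochondria translate the few mRNAs of their own genome on a dedicated ribosome. Its RNAs are encoded in mitochondrial DNA, while every one of its proteins is encoded in the nucleus, made in the cytosol and imported. Mrpl genes are named for the large subunit, which joins amino acids, and Mrps genes for the small subunit, which reads the mRNA. Many of the proteins have bacterial counterparts, and others were gained in the mitochondrial lineage. The peptides made on this ribosome are core subunits of the respiratory chain and ATP synthase, so its output must be matched to that of nuclear genes for the same complexes.

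The libraries held 31036317 and 26432466 estimated reads in controls 2 and 3, and 24469945, 21185956 and 27243557 in irradiated replicates 1, 2 and 3. Reads lay on shorter transcripts after irradiation: the read-weighted mean transcript length was 5463 and 4729 bases in the controls against 3715, 3625 and 3998 bases, so transcript length moved with the groups across the whole transcriptome. Of the neuroendocrine markers, Chga lay between 278 and 475 TPM, a level relative to all transcripts after division by their length, and Uchl1 between 451 and 1060 TPM in the 5 libraries. Of the markers of other cell types, Adgre1, Csf1r, Lyz2, Cdh5, Col3a1 and Dcn were at or near 0. The sums over each list were lower in all 3 irradiated libraries than in both controls: 5 macrophage markers summed to 4.55 and 6.91 TPM in the controls against 1.62, 1.18 and 1.44 TPM, and 3 endothelial markers to 1.55 and 1.28 TPM against 0.31, 0.49 and 0.52 TPM. The 5 fibroblast markers summed to 67.3 and 56.8 TPM against 36.7, 51.8 and 47.0 TPM, most of it Pdgfra, with 13.5 TPM of Col1a1 in control 2. Their part in the results was not tested.

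Together the 78 genes took 0.156% and 0.189% of the reads in controls 2 and 3 and 0.288%, 0.332% and 0.250% in irradiated replicates 1 to 3. Expressed per transcript length, their summed level was 3782 and 4476 TPM in the controls and 5838, 6813 and 5173 TPM in the irradiated libraries (4129 ± 491, SD, n = 2, and 5941 ± 825, SD, n = 3). All 3 irradiated libraries were above both controls on either scale, irradiated replicate 2 highest and control 2 lowest. In bulk RNA, a change in the number of cells of a kind and a change in RNA per cell cannot be told apart. The summed level of the large subunit genes was 2598 and 2976 TPM in the controls against 4040, 4569 and 3483 TPM, and that of the small subunit genes 1157 and 1461 TPM against 1739, 2159 and 1640 TPM, with no overlap of the groups in either subunit. These sums were not tested.

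All 78 genes passed the filter on low counts, the lowest value in any library being 29 reads. Tested in edgeR by quasi-likelihood, with p-values adjusted over 14106 genes after Benjamini and Hochberg, 40 of the 78 (51.3%) were higher after irradiation at an adjusted p under 0.05, 38 did not pass and 0 were lower, whereas 12.7% of all genes tested were called higher and 13% lower. DESeq2 also called 0 of them lower, and 0 had an unadjusted p under 0.05 in that direction in edgeR, against 59 (20.9% of all genes) in the higher direction. The median log2 fold change was 0.72 over the 78 genes and 0.02 over all genes tested. The fold changes were moderate: the 40 called genes lay between 0.52 and 1.65 on the log2 scale, and 2 exceeded 1.5, where 1.63% of all genes did so at the same adjusted p. The CPM values (counts relative to the size of the library, scaled by TMM factors) exceeded both controls in all 3 irradiated libraries in 65 of the 78 genes and lay under both in 0, where 30.1% of all genes were above and 29.3% below. By TPM the pattern was less uniform: 43 genes were above both controls, 32 overlapped, and 3 lay below both (Mrpl19, Mrpl39 and Mrpl45). The share over all genes was not counted by TPM.

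The libraries of each group did not sit equally far from the controls. Relative to the mean control CPM of each gene, the median log2 ratio over the 78 genes was 0.70, 0.96 and 0.49 in irradiated replicates 1, 2 and 3, and -0.06 and 0.06 in controls 2 and 3. Irradiated replicate 2 held the highest CPM of 63 genes and irradiated replicate 1 that of 12, and replicate 2 also had the shortest read-weighted transcript length. The lowest CPM was in control 2 for 50 genes and in control 3 for 25. The calls depended on single libraries: without control 2, which leaves 1 control assumed to vary like the other libraries, 0 of the 78 genes were called in edgeR, and 0.65% of all genes were called higher, while 48 of the 78 had an unadjusted p under 0.05 and the median log2 fold change was 0.66. Without irradiated replicate 1 or 2, 15 and 12 of the 78 genes were called higher, beside 5.95% and 4.91% of all genes. The median stayed between 0.60 and 0.83 whichever library was left out.

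**Figure D1:**
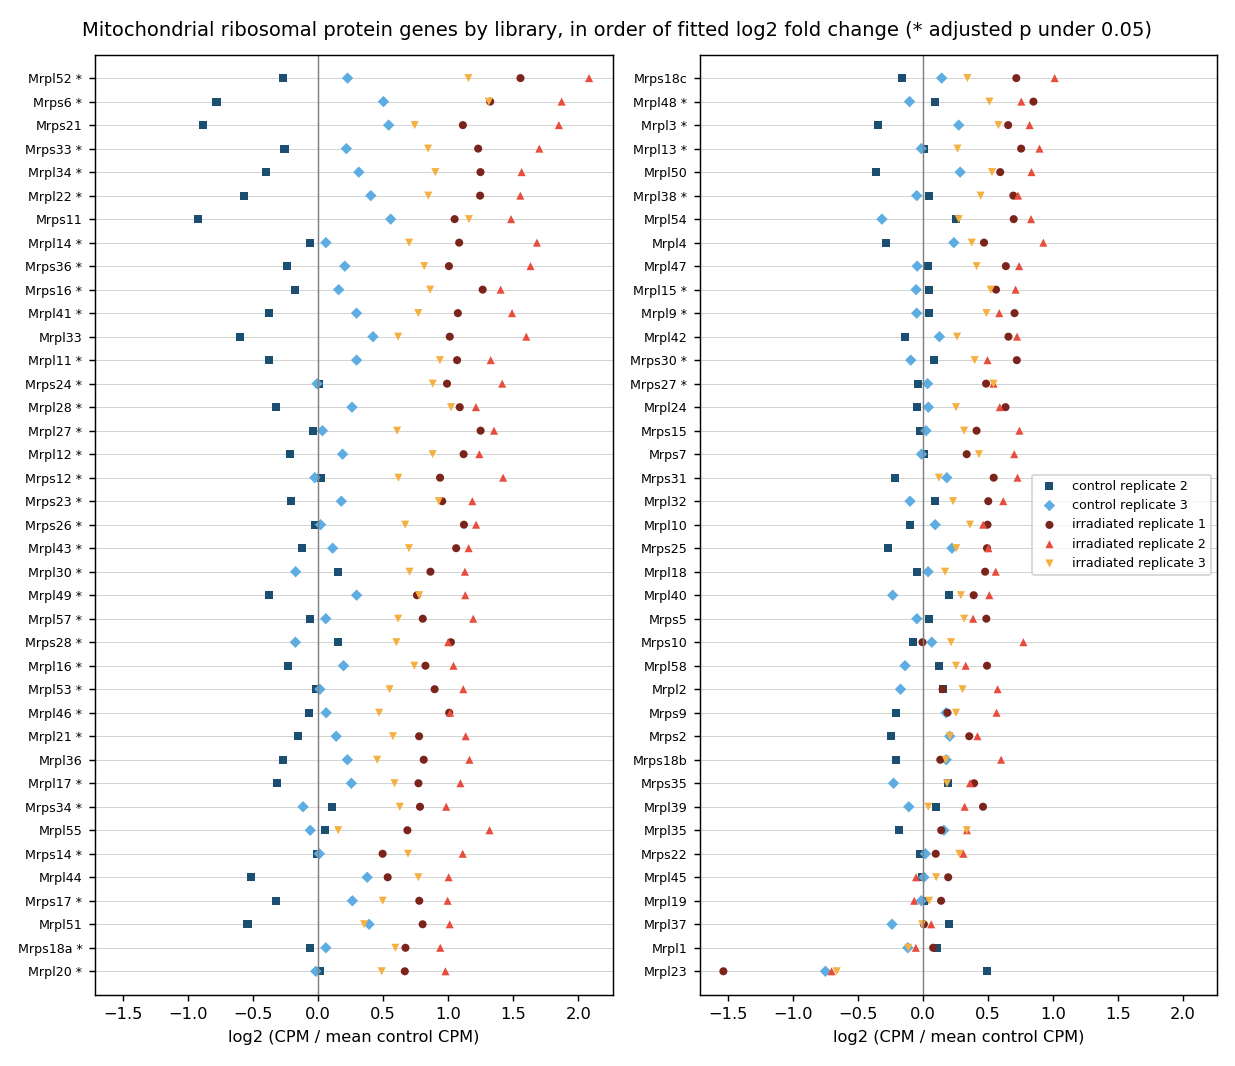
Log2 ratio of the CPM in each library to the mean control CPM (horizontal axis) for the 78 mitochondrial ribosomal protein genes (vertical axis), in order of fitted log2 fold change, with 1 symbol per library and an asterisk at the 40 genes called higher. Irradiated libraries lie to the right of both controls for 65 genes, and Mrpl23 is the lowest gene.

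The genes with the smallest p came from both subunits. Mrpl12, the large subunit protein of the flexible stalk that receives translation factors, had the smallest p, with CPM of 34.1 and 45.3 in controls 2 and 3 and 86.2, 93.8 and 73.1 in irradiated replicates 1 to 3 (log2 fold change 1.09 ± 0.19, SE, adjusted p = 0.00956 in edgeR). Mrps23, a small subunit protein without a bacterial counterpart, went from 25.4 and 33.1 CPM to 56.6, 66.5 and 55.6 CPM. In both genes the lowest irradiated library stood well above the higher control. Mrpl28, with a bacterial counterpart, measured 29.8 and 44.5 CPM in the controls and 79, 86.1 and 75.4 CPM after irradiation. Mrps26, mitochondrial in origin, measured 25.6 and 26.3 CPM against 56.6, 60.3 and 41.4 CPM. Log2 fold changes were 1.03 for Mrps23, 1.11 for Mrpl28 and 1.02 for Mrps26, with adjusted p of 0.00994, 0.0101 and 0.0118 in edgeR.

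Mrpl52, a large subunit protein found in mitochondrial but not bacterial ribosomes, showed the highest fold change of the 78 genes. Its CPM was 6.3 and 8.89 in the controls and 22.3, 32.2 and 16.9 in the irradiated libraries (log2 fold change 1.65 ± 0.31, SE, adjusted p = 0.0115 in edgeR). Its 418-base transcript is also the shortest main transcript in the group. Mrps6, the other gene past 1.5 and named here after its values were seen, encodes a small subunit protein with a bacterial counterpart and measured 5.18 and 12.6 CPM in the controls and 22.3, 32.6 and 22.1 CPM after irradiation (log2 fold change 1.53 ± 0.38, SE, adjusted p = 0.0235 in edgeR). Control 2 lay far below control 3 for Mrps6, and the gene overlaps exons of Gm49711 and Slc5a3.

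The remaining genes among the 12 with the smallest p rose by between 0.91 and 1.30 on the log2 scale (adjusted p = 0.0126 to 0.0152 in edgeR), and in each of them the groups did not overlap. Mrpl34, a bacterial-type large subunit protein, had the highest mean control level of all 78 genes per transcript length, at 114 and 195 TPM, and reached 309, 370 and 248 TPM after irradiation (log2 fold change 1.26, adjusted p = 0.0144 in edgeR). Mrps33 measured 12.9 and 17.9 CPM in the controls and 36, 49.9 and 27.6 CPM after irradiation. Mrps16, whose human counterpart is mutated in a combined deficiency of oxidative phosphorylation, measured 9.03 and 11.4 CPM against 24.6, 27 and 18.6 CPM. Both have a near-identical pseudogene copy, Gm5776 and Gm9173, to which no reads were assigned. Mrps24, a bacterial-type small subunit protein, measured 12 and 11.9 CPM in the controls and 23.7, 31.8 and 22 CPM after irradiation. Mrpl43, found in mitochondria alone, measured 19.6 and 23 CPM against 44.5, 47.5 and 34.6 CPM. Mrps24 and Mrpl43 overlap exons of Urgcp and of Twnk, so part of their reads cannot be told apart from those genes. Mrpl30, of the bacterial-type large subunit core, measured 32.6 and 26 CPM in the controls and 53.4, 64.2 and 47.8 CPM after irradiation.

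Genes with a defined place in the ribosome fell on both sides of the threshold. Of the stalk base, Mrpl11 rose from 13.7 and 21.7 CPM to 37.1, 44.4 and 33.9 CPM (log2 fold change 1.12, adjusted p = 0.0147 in edgeR), whereas Mrpl10, which anchors Mrpl12, measured 31.8 and 36.4 CPM against 48.1, 47 and 43.8 CPM and did not pass (0.44, adjusted p = 0.0642). The difference between these genes was not tested. Mrps12, at the decoding centre, rose from 9.7 and 9.38 CPM to 18.3, 25.6 and 14.6 CPM (1.03, adjusted p = 0.0274 in edgeR). Mrpl45, which holds the ribosome at the inner membrane, measured 39.4 and 39.9 CPM in the controls and 45.4, 38.2 and 42.5 CPM after irradiation, so its groups overlapped (0.09, adjusted p = 0.709 in edgeR). Mrpl58, a peptidyl-tRNA hydrolase built into the large subunit, measured 28 and 23.3 CPM against 36.1, 32.2 and 30.6 CPM and did not pass (0.36, adjusted p = 0.15 in edgeR).

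The genes of the Mrps18 family, related copies of a single bacterial protein, gave 1 call among 3. Mrps18a, whose protein sits in the large subunit despite its symbol, rose from 23.3 and 25.3 CPM to 38.7, 46.6 and 36.7 CPM (log2 fold change 0.74, adjusted p = 0.02 in edgeR). Mrps18b measured 20.5 and 26.8 CPM against 26, 35.9 and 26.7 CPM, with overlapping groups (0.32, adjusted p = 0.292). Mrps18c measured 9.35 and 11.6 CPM against 17.2, 21.1 and 13.3 CPM (0.72, adjusted p = 0.0684). Mrps30, another large subunit protein with a small subunit symbol, rose from 41 and 36.2 CPM to 63.6, 54.4 and 50.8 CPM (0.55, adjusted p = 0.0423 in edgeR). Mrps36 is now known as a component of the α-ketoglutarate dehydrogenase complex rather than of the ribosome, and it rose too, from 6.06 and 8.26 CPM to 14.4, 22.2 and 12.6 CPM (1.19, adjusted p = 0.026 in edgeR).

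Among genes whose human counterparts are mutated in mitochondrial disease, Mrpl3, near the peptide-joining centre, measured 27.6 and 42.3 CPM in the controls and 55.1, 61.8 and 52.3 CPM after irradiation (log2 fold change 0.69, adjusted p = 0.0418 in edgeR). Mrpl44, a large subunit protein related to ribonuclease III, measured 10.7 and 19.9 CPM against 22.2, 30.7 and 26.1 CPM and did not pass (0.78, adjusted p = 0.0731). Mrps22 measured 24.3 and 25 CPM against 26.4, 30.6 and 29.9 CPM, a difference of 0.23 ± 0.16 (SE) on the log2 scale that did not pass either (adjusted p = 0.316 in edgeR).

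The lowest fold changes were small, except that of Mrpl23. Mrpl1, a bacterial-type protein of the stalk that releases spent tRNA, measured 30.1 and 25.8 CPM in the controls and 29.6, 26.9 and 25.9 CPM after irradiation. Mrpl37 measured 64.9 and 47.9 CPM against 56.7, 59 and 56.2 CPM. Neither differed beyond the spread of the libraries (log2 fold changes -0.03 and 0.02, adjusted p = 0.923 and 0.933 in edgeR). Mrpl23, at the exit tunnel for the new peptide, was the least expressed gene of the group, with 134 and 53 reads in the controls and 29, 45 and 58 reads after irradiation. Control 2 alone stood apart there, the groups overlapped, and the log2 fold change of -0.91 ± 0.51 (SE) did not pass (adjusted p = 0.213 in edgeR). The level per transcript length was lowest in Mrpl23, Mrpl47 and Mrpl11 and highest in Mrpl34, Mrpl2 and Mrpl42, over a range of control means from 9.67 to 155 TPM with a median of 46.5 TPM. Mrpl2, near the peptide-joining centre, measured 145 and 123 TPM in the controls and 104, 137 and 129 TPM after irradiation, with overlapping groups. Mrpl42 measured 107 and 132 TPM against 168, 168 and 131 TPM. Mrpl47 measured 8.24 and 14.3 TPM against 19.2, 28.4 and 26.8 TPM. None of Mrpl2, Mrpl42 and Mrpl47 passed the test (adjusted p = 0.18, 0.0662 and 0.0523 in edgeR).

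Both subunits and both evolutionary classes held called genes. Of 51 large subunit genes 27 were called higher, with a median log2 fold change of 0.71, and of 26 small subunit genes 12, with a median of 0.74. Among large subunit genes, 16 of 30 with a bacterial counterpart and 10 of 20 without one were called higher, with medians of 0.71 and 0.69. Among small subunit genes, 7 of 16 with and 5 of 9 without a bacterial counterpart were called, with medians of 0.78 and 0.52. The 78 genes lie on 17 chromosomes, 11 of them on chromosome 11 and 8 on chromosome 17.

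Fold change followed transcript length inside the group as it did across the transcriptome. Spearman's correlation of main transcript length with log2 fold change was -0.56 across the 78 genes and -0.56 across all genes tested, given as a description, since genes in the same libraries are not independent. The main transcripts were mostly short, with a median of 1205 bases. Against protein-coding genes of comparable length (685 to 3516 bases, 7828 genes), the share called higher was 19.5% and the median log2 fold change 0.32, and 69 of the 78 genes were above that median. In the same range 2.86% were called lower, 1.97% passed a log2 fold change of 1.5 with an adjusted p under 0.05, 32.5% had an unadjusted p under 0.05 in the higher direction, and 45.7% exceeded both controls in all irradiated libraries while 12% lay under both. In bins of length the contrast was uneven. Below 800 bases, 11 of 17 mitoribosomal genes were called higher with a median log2 fold change of 1.10, beside 49.1% of other coding genes with a median of 1.02. From 800 to 1200 bases the counts were 14 of 22 beside 45.5%, and the medians were both 0.84. From 1200 to 2000 bases they were 9 of 19 beside 28.2%, with medians of 0.60 and 0.52. At 2000 bases and above, 6 of 20 were called higher with a median of 0.44, beside 4.74% of other coding genes with a median of -0.14, and 19 of the 20 were above that median. Length was taken here from the transcript with most reads, and the short bins differed when it was taken from the transcript with the highest TPM, a choice added after seeing the data. Below 800 bases, 14 of 26 mitoribosomal genes were then called higher with a median of 0.85, beside 24.1% of other coding genes with a median of 0.23, and 25 of the 26 were above that median. The medians were 0.81 beside 0.72 from 800 to 1200 bases and 0.60 beside 0.49 from 1200 to 2000 bases. At 2000 bases and above, 2 of 8 were called, with a median of 0.31 beside -0.15. From 2000 bases the median of the mitoribosomal genes was thus above that of other coding genes by either length. That bin has no upper bound, so its genes were not matched in length. Inside it the median of other coding genes fell from 0.32 in the group near 2054 bases to -0.95 in that near 9851 bases. The short genes had medians near those of other short genes by the first length and above them by the second.

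**Figure D2:**
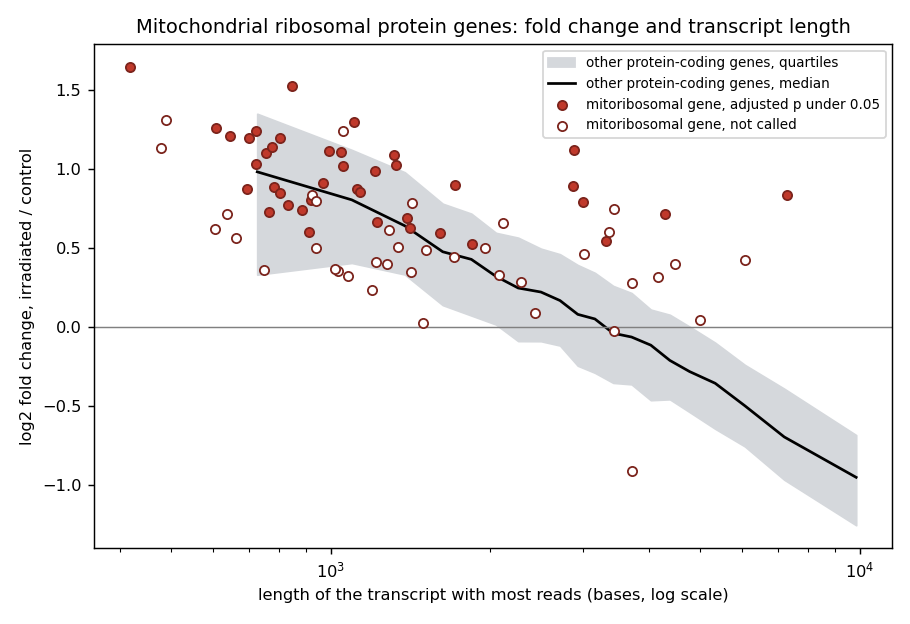
Log2 fold change (vertical axis) against the length in bases of the transcript with most reads (horizontal axis, log scale) for the 78 mitochondrial ribosomal protein genes, filled where called, over the median and quartiles of other tested protein-coding genes in 20 groups of equal size. Below 1200 bases the points lie around the line. From 2000 bases 19 of 20 lie above -0.14, the single median of all other coding genes of that length, which is not the drawn line.

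When a spline on transcript length was fitted in each library and used as an offset, 5 of the 78 genes were called higher and 0 lower in edgeR, where 2.99% of all genes were called higher and 2.16% lower, and of coding genes of comparable length 2.78% and 1.84%. The median log2 fold change fell to 0.24, beside 0.04 over all genes and 0.08 over coding genes of comparable length. Of the 78 genes 61 were above 0, beside 7592 of 14106 over all genes. An unadjusted p under 0.05 in the higher direction was found for 31, beside 15.9% of all genes. The 5 called genes were Mrpl52 (1.19, adjusted p = 0.0401), Mrpl11 (1.08, adjusted p = 0.0355), Mrpl48 (0.94, adjusted p = 0.0348), Mrpl17 (1.49, adjusted p = 0.0352) and Mrps5 (0.66, adjusted p = 0.0378). Mrpl17, a bacterial-type protein of the exit tunnel rim, measured 20.6 and 30.5 CPM in the controls and 43.6, 54.5 and 38.4 CPM after irradiation. Mrpl48, of the central protuberance, measured 22.4 and 19.5 CPM against 37.8, 35.4 and 29.9 CPM, and Mrps5, near the mRNA entrance, 62.2 and 58.4 CPM against 84.6, 78.8 and 75.2 CPM. In CPM the groups did not overlap in any of these genes, but in TPM they overlapped in Mrpl48 and Mrps5. Mrpl48 measured 48.1 and 27.4 TPM in the controls and 58.0, 48.2 and 44.8 TPM after irradiation. Mrps5 measured 101 and 111 TPM against 111, 100 and 109 TPM. Mrpl17, Mrpl48 and Mrps5 were assigned main transcripts of 7300, 4285 and 4481 bases beside shorter ones of 459, 834 and 812 bases with a higher TPM. With the length of the highest-TPM transcript, 8 genes were called, against 4.62% of all genes and 4.93% of coding genes of comparable length, and 2 of them, Mrpl11 and Mrpl52, were called under both choices. The genes gained were Mrpl12, Mrpl28, Mrpl34, Mrps16, Mrps23 and Mrps33. Without control 2, which leaves 1 control, the median log2 fold change under the offset was 0.35. Without irradiated replicate 1 or irradiated replicate 2, 0 of the 78 genes were called under the offset in edgeR, where 0 and 1 of all genes were called higher. Of the 78 genes, 25 and 18 had an unadjusted p under 0.05 in the higher direction in these 2 fits, beside 13.8% and 11.1% of all genes. Without control 3 the count was 18 higher, beside 7.34% of all genes, and 1 lower, Mrpl37 (-0.72, adjusted p = 0.0311).

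**Figure D3:**
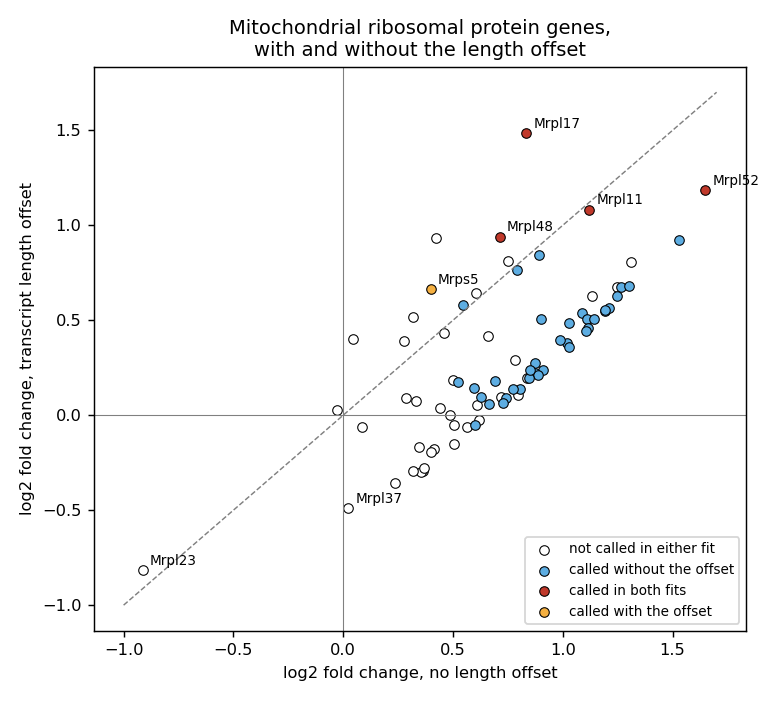
Log2 fold change of each of the 78 genes without (horizontal axis) and with (vertical axis) the transcript length offset, coloured by the fit in which the gene was called, with equality as a dashed line. Most points lie below the line, and Mrpl17, Mrpl48 and Mrps5 lie above it.

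Genes that work with the mitochondrial ribosome were read beside its proteins, from lists chosen by function. Over all 7 lists 17 of 93 tested genes were called in either direction, where 25.6% of all genes were. With the length offset 4 of the 93 were called, where 5.15% of all genes were. Of 5 ribosomal proteins with other symbols, Chchd1, Aurkaip1 and Gadd45gip1 were higher. Chchd1, a small subunit protein, measured 70 and 95.8 TPM in the controls and 186, 208 and 125 TPM after irradiation (log2 fold change 1.32, adjusted p = 0.0135 in edgeR). The log2 fold changes of Aurkaip1 and Gadd45gip1 were 0.87 and 0.78 (adjusted p = 0.021 and 0.0229). Dap3 and Ptcd3, both of the small subunit, did not pass (0.18 and -0.11, adjusted p = 0.362 and 0.594). Of 25 assembly factors 6 were higher and 0 lower in edgeR, with a median of 0.53. Those higher included Mpv17l2 (1.05, adjusted p = 0.0117), an inner membrane protein, Ngrn (0.86, adjusted p = 0.0266) and Clpp (0.69, adjusted p = 0.031), a matrix protease. The median transcript length of the 25 was 1821 bases. Of other coding genes of 1200 to 2000 bases 28.2% were called higher, with a median of 0.52. With the length offset 0 of the 25 were called, and Clpp was at 0.035 (adjusted p = 0.919 in edgeR). Of 14 translation factors, 0 were called in either direction in edgeR, with 2 at an unadjusted p under 0.05 in the higher direction and a median of 0.18. Of 17 mitochondrial aminoacyl-tRNA synthetases, Nars2 and Yars2 were higher and Mars2 lower, with a median of -0.08. With the length offset Mars2, whose main transcript has 11294 bases, had a log2 fold change of 0.24 (adjusted p = 0.418 in edgeR), Yars2 did not pass (0.28, adjusted p = 0.336), and Nars2 did (0.98, adjusted p = 0.0465).

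The mRNAs translated on the mitochondrial ribosome were read as well. Of 13 mitochondrially encoded mRNAs 1 was called higher, mt-Nd3, and 0 lower, with a median log2 fold change of -0.28. Their summed level was 39665 and 65190 TPM in the controls and 25262, 37821 and 55603 TPM after irradiation, so the groups overlapped, and irradiated replicate 1 was lowest. Of 8 genes for mitochondrial transcription and mRNA stability, Lrpprc, which stabilises mitochondrial mRNAs, was lower (-0.61, adjusted p = 0.043 in edgeR) and 0 were higher (4 with an unadjusted p under 0.05). Among 11 regulators of nuclear genes for mitochondria, Esrra (1.06, adjusted p = 0.00919) and Mycl (0.70, adjusted p = 0.0166) were higher and Pprc1, a coactivator related to PGC-1α, was lower (-0.77, adjusted p = 0.0109 in edgeR). Gabpa, Gabpb1, Nrf1 and Yy1 did not pass (0.09, 0.15, -0.08 and 0.20, adjusted p = 0.682, 0.464, 0.75 and 0.339 in edgeR). With the length offset Yy1 passed (0.72, adjusted p = 0.0355 in edgeR), whereas Gabpa, Gabpb1 and Nrf1 did not. Lrpprc and Pprc1 did not pass with the offset (-0.37 and -0.38, adjusted p = 0.175 and 0.0895 in edgeR), nor did mt-Nd3 (0.82, adjusted p = 0.0608). Esrra and Mycl did (0.85 and 0.73, adjusted p = 0.0349 for each). For size, 77 of 82 tested cytosolic ribosomal protein genes were called higher, with a median log2 fold change of 1.25, and 65 of 82 nuclear respiratory chain genes, with a median of 1.08. Their transcripts were shorter, with median lengths of 736 and 760 bases. Under the length offset the medians were 0.69 and 0.48, beside 0.24 for the mitochondrial ribosome.

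**Figure D4:**
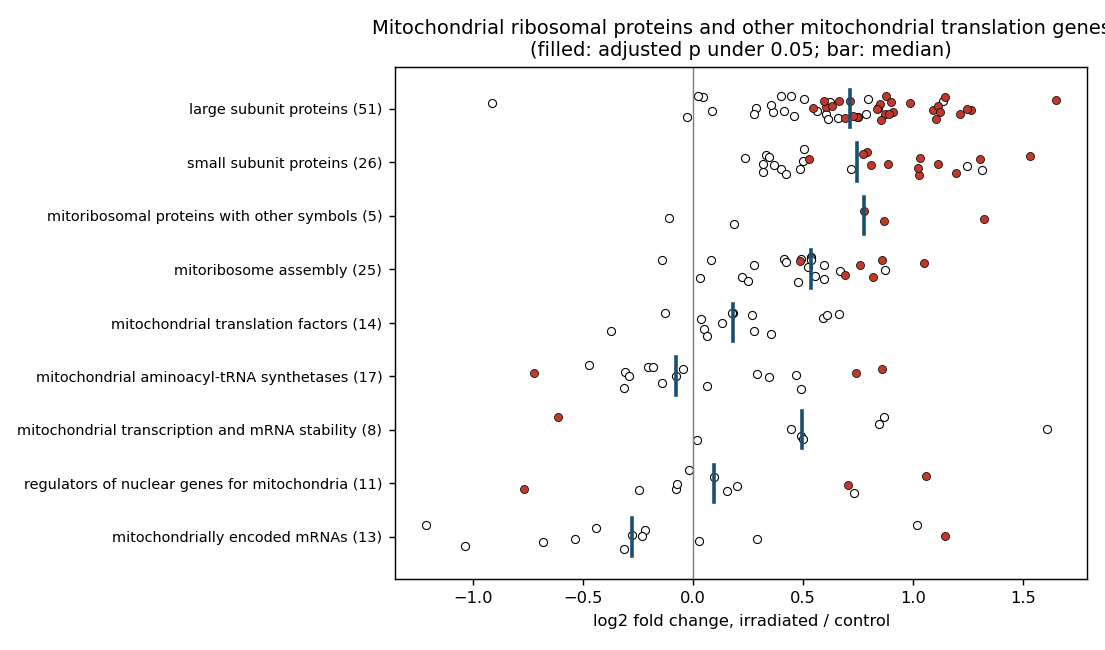
Log2 fold change (horizontal axis) of each tested gene in the 2 subunits of the mitochondrial ribosome and in 7 lists of genes that work with it, filled where called, with the median of each list as a bar. The subunit medians are 0.71 and 0.74, and that of the mitochondrially encoded mRNAs is -0.28.

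Promoter sequence was examined because many of the 78 genes moved together. RefSeq windows on GRCm38.p6, from 250 bases before to 50 after the start, matched 69 of them. A gene was counted once if any of its windows held a motif. The ETS-family motif CCGGAAG, the kind of site bound by the respiratory regulator GABP, was found on either strand for 26 of 69 genes (37.7%), against 13.4% of 16466 protein-coding genes with a window. It was present for 18 of 35 called genes and 8 of 34 of the others. The YY1 motif AAGATGGC was found for 12 genes (17.4% against 3.65%), the palindromic core of the NRF1 motif in 3 (4.35% against 1.53%), the E-box CACGTG in 5 (7.25% against 9.20%) and CCAAT in 27 (39.1% against 42.0%). Of these, YY1 was present for 5 of 35 called genes and 7 of 34 of the others, and CCAAT for 13 and 14. The NRF1 core was present for 1 and 2, and the E-box for 1 and 4. The split by call was not tested for any motif, and it was not counted over other coding genes. These searches covered both strands, no motif was contained in another, although the ETS and YY1 motifs can share the letters AAG, and a match is a description of the letters, not a bound site. Upstream stretches free of annotated exons are shown for called Mrpl52 and Mrpl34 and for Mrps22 and Mrpl58, which did not pass, because all of them hold the ETS motif within the same span. They were chosen after their values were seen. Each runs 5′ to 3′ along the strand of its gene, at chr14:54426659-54426908 (+), chr8:71464676-71464925 (+), chr9:98601680-98601929 (-) and chr11:115403502-115403751 (+), and capitals mark the motif or its reverse complement.
Mrpl52: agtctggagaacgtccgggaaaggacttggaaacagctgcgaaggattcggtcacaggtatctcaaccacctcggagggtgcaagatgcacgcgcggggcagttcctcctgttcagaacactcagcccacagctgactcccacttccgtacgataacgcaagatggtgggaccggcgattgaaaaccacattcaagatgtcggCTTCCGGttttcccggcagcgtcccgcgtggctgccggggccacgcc
Mrpl34: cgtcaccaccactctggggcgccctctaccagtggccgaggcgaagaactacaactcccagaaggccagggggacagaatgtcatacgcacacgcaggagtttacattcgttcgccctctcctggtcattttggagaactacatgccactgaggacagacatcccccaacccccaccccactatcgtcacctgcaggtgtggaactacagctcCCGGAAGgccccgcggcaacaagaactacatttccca
Mrps22: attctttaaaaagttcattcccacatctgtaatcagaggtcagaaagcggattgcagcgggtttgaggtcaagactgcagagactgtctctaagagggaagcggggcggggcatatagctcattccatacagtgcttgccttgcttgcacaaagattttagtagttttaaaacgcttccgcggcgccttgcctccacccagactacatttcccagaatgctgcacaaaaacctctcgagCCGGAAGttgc
Mrpl58: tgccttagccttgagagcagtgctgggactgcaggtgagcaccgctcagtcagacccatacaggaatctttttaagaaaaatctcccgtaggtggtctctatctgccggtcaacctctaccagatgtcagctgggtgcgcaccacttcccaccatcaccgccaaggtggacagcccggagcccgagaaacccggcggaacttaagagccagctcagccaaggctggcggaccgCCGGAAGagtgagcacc

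The deposited transcripts also showed which isoforms carried the reads. The 78 genes had 331 transcripts, of which 164 were annotated as coding, 84 as retained-intron, 60 as processed and 23 as targets of nonsense-mediated decay. Coding transcripts held 88.7% and 87.9% of their reads in the controls and 90.3%, 89.9% and 89.9% after irradiation, and retained-intron transcripts 6.06% and 6.66% against 4.41%, 4.71% and 4.67%. The groups did not overlap in either share, and no test was run on them. Of 62 genes with reads on other transcripts, the coding share was above both controls in all 3 irradiated libraries for 24 (38.7%) and below both for 7, where 34.1% and 4.68% of tested protein-coding genes with such reads were above and below. By TPM the counts were 20 and 8, and the share over all coding genes was not counted by TPM.

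Mrpl23 moved furthest, its coding share being 27.3% and 20.7% in the controls and 59.0%, 66.6% and 63.6% after irradiation. Its 3715-base retained-intron transcript held 53 and 29 reads in the controls and 12, 15 and 21 reads afterwards, so the low total of the gene came with fewer reads outside coding transcripts. In Mrps9 the coding share went from 70.4% and 75.8% to 94.6%, 94.5% and 91.8%, and in Mrps24 from 47.8% and 52.0% to 75.5%, 61.7% and 69.8%. The coding transcript of Mrps24 alone held 163 and 164 reads in the controls against 449, 430 and 421. Mrpl3 went the other way, from 43.2% and 39.9% to 31.8%, 30.0% and 24.4%, and its 1394-base decay-target transcript rose from 290 and 418 reads to 748, 668 and 727. In Mrps26 most reads lay on a 1057-base retained-intron transcript in every library, and its coding share was 36.0% and 33.3% in the controls and 29.7%, 30.1% and 30.1% after irradiation. Mrps16 had a coding share of 34.0% and 38.1% in the controls and 37.0%, 36.1% and 36.5% after irradiation. Its 801-base processed transcript rose from 170 and 188 reads to 389, 378 and 324. The rise in Mrpl3, Mrps16 and Mrps26 was thus assigned largely to transcripts that are not annotated as coding, and these shares are estimates by Salmon where isoforms share exons. Mrps9, Mrps16, Mrps24 and Mrps26 were picked here for their coding shares.

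**Figure D5:**
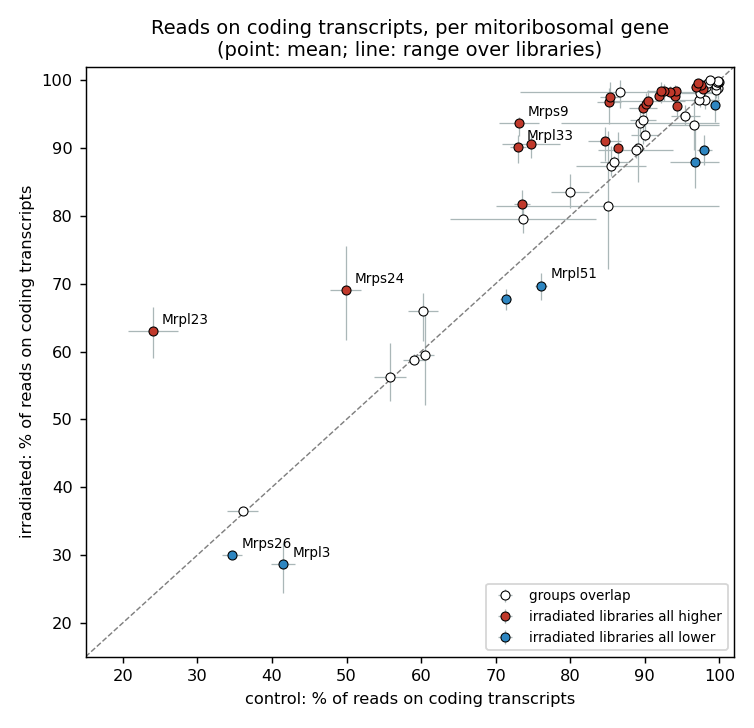
Percentage of reads on coding transcripts in irradiated (vertical axis) against control libraries (horizontal axis) for the 62 genes with reads on other transcripts, as means with lines over the range of the libraries, and equality dashed. Mrpl23, Mrps24 and Mrps9 lie furthest above the line, and Mrpl3 lies below it.

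Some of these genes share sequence with others. Near-identical copies were found for 17 of the 78, and all the copies were pseudogenes with at most 1 read in a library except Gm42688, a coding gene that contains Mrpl53 and held up to 118 reads. The exons of 23 genes overlap those of another gene, and within the group those of Mrpl46 and Mrps11 do so on opposite strands of chromosome 7. The spans of these 2 genes share positions 78783119 to 78783531. Counting by strand is not stated, so reads of such pairs cannot be told apart. Of the 61 genes without a copy 31 were called higher, with a median log2 fold change of 0.69, and of the 55 without an overlap 26, with a median of 0.69.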

How the data were processed

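Bulk RNA of KP1 cells was sequenced in 2 control and 3 irradiated libraries. Per the labels, the authors prepared total RNA, and their processing notes name Salmon 0.8.2, DESeq2 1.22.2 and mm10. The deposited files give, per transcript, estimated counts and TPM (transcripts scaled to a fixed total after division by effective length). The annotation release is not given in the sources used here, and 112762 of 113116 transcripts (99.7%) matched GENCODE M21 by identifier. The authors' TPM values were summed per gene without further scaling, and estimated counts were summed per gene and rounded to whole numbers.

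Genes kept by filterByExpr were tested with edgeR 4.0.16 (R 4.3.3; TMM, quasi-likelihood test, Benjamini-Hochberg over 14106 genes, called at an adjusted p under 0.05), irradiated against control, without covariates. The study used DESeq2 on the same groups with a log2 fold change threshold of 1.5. DESeq2 1.42.0, limma 3.58.1 on log2(TPM + 1), other scalings and filters, offsets for transcript length (spline with 5 degrees of freedom), effective length and GC content, a replicate block and the omission of each library were alternatives. The main fit, the replicate block, DESeq2, the length offset and, with equal lengths, the effective length offset were run on simulated counts. The other alternatives were not. When a length trend was simulated, most calls of the main fit fell on genes given no other change. Near-identical copies were sought with blastn 2.17.0 (at least 95% identity over 80% of the length). Comparable length means the 10th to 90th percentile of the 78 main transcripts, the main transcript being the one with most reads. For a single gene, an exact two-sided permutation test of 2 against 3 libraries cannot go below p = 0.1, and none was run.

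The genes and lists were chosen with earlier results of these data known. Named genes were the 12 with the smallest p, the 3 lowest fold changes, the 3 highest and 3 lowest control TPM, 15 picked by role and those called under the length offset, with the 5 ribosomal proteins of other symbols and the called pathway genes of smallest p. Depth was 21185956 to 31036317 reads per library. Part of the neuroendocrine marker list is not reported here.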

Additional observations from a re-analysis of the deposited data

How the results depend on the processing

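The main count was 40 genes called higher. It was 17 with limma on TPM (and 1 called lower, Mrpl19 at -0.83, beside 4.91% of all genes higher and 19% lower), 5 with the transcript length offset, 8 with that offset by the highest-TPM transcript and 2 with the log2 threshold of 1.5. The median log2 fold change, 0.72, was 0.46 with limma on TPM, where the median of all genes was -0.24, 0.24 with the length offset and 0.31 with the highest-TPM length, and it was above 0 under every alternative run. The 17 pathway genes called of 93 were 27 when no count filter was applied, 4 with the length offset and 8 with the highest-TPM length. Of all genes, 25.6% were called in either direction in the main test. That share was 21.9% without a filter, 5.15% with the length offset and 8.42% with the highest-TPM length. As single libraries were omitted, genes called higher ranged from 0 to 42, pathway genes called from 1 to 22, and genes with a coding share above both controls, 24 in full, from 24 to 38. Under the length offset with each library left out, the counts were 0 to 18 higher, 0 to 1 lower and 0 to 13 pathway genes, with a median of 0.35, 0.38, 0.25, 0.24 and 0.26 without control 2, control 3 and irradiated replicates 1, 2 and 3. Omitting a library can only keep or raise the count of coding shares above both controls, so its range does not measure stability. DESeq2, its size factors in edgeR, protein-coding genes alone, GC and effective length offsets and no filter left the main count of genes called higher within 1.5 times.

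The replicate numbers 2 and 3 occur in both groups, but across genes the difference between them correlated at -0.20 between groups, so the numbers were not taken as pairs. With the replicate block 14 genes (602 of 14106 over all genes, in the higher direction) and 4 pathway genes (7.77% of all genes in either direction) were called. Adding the length offset to the block left 0 genes and 0 pathway genes, where 0.0142% of all genes were called in either direction. The median was then 0.26, and 21 genes had an unadjusted p under 0.05 in the higher direction, beside 9.39% of all genes. With the numbers crossed, chosen after seeing the data like the highest-TPM length and the length offset with libraries left out, 61 genes and 36 pathway genes were called, beside 21.5% of all genes higher and 18.9% lower.

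Sign changes of named genes were counted over all alternatives except the length offset with a library left out. Of the 33 named genes of the ribosome, 10 changed sign under an alternative so counted. None of the 10 was called in the main test, and Mrpl37 alone was called with the other sign, under the length offset without control 3. With the length offset the log2 fold change was 0.026 for Mrpl1, -0.30 for Mrpl2, -0.49 for Mrpl37, -0.062 for Mrpl42, -0.062 for Mrpl45, -0.29 for Mrpl58, -0.30 for Mrps18b and -0.35 for Mrps22. By the highest-TPM length it was 0.071 for Mrpl1, -0.14 for Mrpl2, -0.41 for Mrpl37, -0.082 for Mrpl45, -0.086 for Mrpl58, -0.15 for Mrps18b, -0.23 for Mrps22 and -0.059 for Mrps5. With the replicate block and the length offset it was -0.0029 for Mrpl10, -0.19 for Mrpl2, -0.45 for Mrpl37, -0.13 for Mrpl42, -0.13 for Mrpl45, -0.35 for Mrpl58, -0.22 for Mrps18b and -0.30 for Mrps22. With limma on TPM it was -0.13 for Mrpl2, -0.23 for Mrpl37, -0.20 for Mrpl45, -0.037 for Mrpl58, -0.12 for Mrps18b and -0.030 for Mrps22. Mrpl1 was at 0.24 with the GC offset, 0.026 with effective lengths and 0.021 without a filter, and between -0.11 and 0.11 with a library left out. Mrpl37 was at -0.17 with the GC offset and between -0.16 and 0.28 with a library left out. Of 3 genes named outside the rule, Mrps9 was at -0.17 with the length offset, -0.081 by the highest-TPM length and -0.11 with the replicate block and the length offset, and Mrpl19 at -0.0085 with the replicate block, -0.0082 with the crossed block and between -0.0069 and 0.095 with a library left out. Of 16 named pathway genes, 3 changed sign. Mars2 was at 0.24 with the length offset, 0.28 by the highest-TPM length and 0.33 with the replicate block and the length offset, Dap3 at -0.065 with limma on TPM and -0.26 by the highest-TPM length, and Ptcd3 at 0.093 with the GC offset. With the length offset Esrra, Mycl and Nars2 kept their calls among these 16. The cause of these changes was not tested.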
